A study of Mus musculus with 2 samples.

Results

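Flt3- Ly6d+ early thymic progenitors are a sorted fraction of the most immature Kit+ cells of the mouse thymus. Its members were the 847 cell barcodes that the authors' table assigns to the fraction, of 8293 barcodes in all. How the authors made the assignment is not stated, and no RNA level was used here to choose the cells.

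The mice were C57BL/6 and homozygous for a yellow fluorescent reporter at Bcl11b (Bcl11b yfp/yfp). Thymus cells were sorted into 5 populations, each was stained with its own hashtag antibody, and all 5 were pooled into 1 droplet library of 3′ RNA. All populations were negative for lineage markers (Lin-), viable by 7AAD exclusion and Kit+, and the 4 gated sorts were also CD25- and negative for the Bcl11b reporter. These 4 were Flt3+ Ly6d- HSA- (1412 cells), Flt3+ HSA+ (1182 cells, not gated on Ly6d), Flt3- Ly6d- HSA- (1205 cells) and Flt3- Ly6d+ (847 cells, not gated on HSA, the CD24 antigen). The control (3302 cells) was gated on Kit alone beyond the shared lineage and viability gates, and its label places it at the early progenitor and DN2 stages. The sources used here give no age, sex or number of mice.

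Early thymic progenitors arrive from the bone marrow and still hold myeloid, dendritic and lymphoid potential. Under Notch signals they lose stem cell regulators, gain the T-cell factors Tcf7 and Gata3, then gain CD25 (encoded by Il2ra) at the DN2 stage and Bcl11b at commitment. Flt3 is a cytokine receptor that marks the earliest progenitors. Ly6d is a small membrane-anchored protein of the Ly6 family, used in the bone marrow to mark lymphoid progenitors that lean to the B-cell fate.

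Each population was sorted once, so differences could not be set against the spread of repeated sorts and no test was run. The Ly6d+ sort held 10616041 unique molecular identifiers (UMIs), with a median of 11404 UMIs and 3209 genes per cell, against medians of 9860 to 21152 UMIs in the other sorts. Levels are UMIs summed over the cells of a sort and scaled to 1000000 (CPM). Intervals in parentheses are 95% intervals of counting error only. A gene was called higher or lower by a size rule: a ratio of 2 or more, where the higher sort reached 20 CPM and 5% or more of its cells held a UMI. Members of gene lists were counted at a ratio of at least 1.5 among those with 5 CPM or more in either sort. The shares of all measured genes that passed are given where the lists of a comparison are first counted, and again beside later counts. They hold for all cells. No such share was counted for list members in settings that leave cells out or rescale the totals. Fewer cells of a type and less RNA per cell cannot be told apart in such sums. The hashtag of the sort was the most abundant hashtag in all 847 cells, with a median share of 99.2% and a lowest share of 95.1%.

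Ly6d RNA followed the gate. Its level was 431 CPM (419 to 444) in the Ly6d+ sort and 415 CPM in the control. Flt3+ Ly6d- HSA- cells had 17.5 CPM, Flt3+ HSA+ cells 13.7 CPM and Flt3- Ly6d- HSA- cells 11.3 CPM. The sort therefore stood 24.6-fold (22.3 to 27.2) to 38-fold (32.4 to 44.8) above the other gated sorts and near the control. Among the other gate genes Flt3 RNA also followed its antibody. Flt3 stood at 14.2 CPM in the Ly6d+ sort, 4.5-fold (3.81 to 5.36) below Flt3+ HSA+ cells and 6.17-fold (5.23 to 7.32) below Flt3+ Ly6d- HSA- cells. It was also 1.67-fold (1.37 to 2.04) below the other Flt3- sort, which was negative for Ly6d and HSA. Kit, the stem cell factor receptor, was at 112.5 CPM in the Ly6d+ sort and between 64.9 and 98.6 CPM in the other gated sorts. Cd24a, which encodes HSA, was at 203 CPM in these ungated cells against 142 CPM in the sort gated HSA+. Ly6d and HSA can therefore not be told apart as the surface property that separates the Ly6d+ sort from Flt3- Ly6d- HSA- cells. Bcl11b was at 3.49 CPM (2.45 to 4.8), from 17 cells, against 0.284 to 0.312 CPM in the other gated sorts and 193 CPM in the control.

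The markers named for the Ly6d+ sort were all at least 1.5-fold higher in it than in each of the other gated sorts. These were Ly6d, Tcf7, Il2ra, Fgf3, Ccl5 and Il7r, and they were chosen with these values known, so their count is no evidence of its own. The size rule over all 3 other gated sorts called 5 of 5516 genes highest in the Ly6d+ sort (0.0906%): Ly6d, Hbb-bt, Fgf3, Il2ra and Ccl5. On the mm10 assembly (GENCODE M21) Ly6d lies at chr15:74762056-74763620 on the minus strand and Hbb-bt at chr7:103812524-103813996 on the minus strand. Fgf3 lies at chr7:144838083-144844436 and Il2ra at chr2:11642807-11693193, both on the plus strand, and Ccl5 at chr11:83525778-83530518 on the minus strand.

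Levels over all sorts are given below in 1 order: Flt3+ Ly6d- HSA-, Flt3+ HSA+, Flt3- Ly6d- HSA-, Flt3- Ly6d+ and control. Tcf7, which encodes the T-cell factor TCF-1, was at 30.2, 42.8, 121.6, 211 and 215 CPM in this order. It was 7-fold (6.44 to 7.61) and 4.93-fold (4.59 to 5.31) higher in the Ly6d+ sort than in the Flt3+ sorts, but 1.74-fold (1.63 to 1.85) higher than in the other Flt3- sort. The ratio of the control to the Ly6d+ sort was 1.02 (0.974 to 1.07). Il2ra, the gene of CD25, was at 0.569, 2.07, 9.2, 29.9 and 206 CPM in the same order of sorts. All 4 gated sorts were CD25- at the surface, and their Il2ra RNA still ranged over 52.7-fold (30.9 to 97.5). The control, which was not gated on CD25, held 6.87-fold (6.14 to 7.7) more Il2ra RNA than the Ly6d+ sort.

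Fgf3, which encodes a secreted fibroblast growth factor, was at 0.203, 0.586, 4.07, 23 and 58.4 CPM in the same order. Its order over the sorts was that of Il2ra. Fgf3 was 5.65-fold (4.22 to 7.68) higher in the Ly6d+ sort than in Flt3- Ly6d- HSA- cells, the largest ratio after Ly6d among the genes called in that pair. Ccl5, a chemokine of T and NK cells, had another order. Its level was 7.43, 11.6, 26.7, 74.1 and 28.9 CPM, so that the Ly6d+ sort was the highest of all 5 and 2.56-fold (2.35 to 2.79) above the control. Il7r, the interleukin-7 receptor, was flat over the other 3 gated sorts at 14.1 to 17 CPM, against 29.6 CPM in the Ly6d+ sort and 80.4 CPM in the control. Hbb-bt, a beta globin gene, was at 29, 68.4, 193, 563 and 553 CPM. The plot of levels by sort shows these orders beside those of Socs3, Mpo and Flt3.

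**Figure D1:**
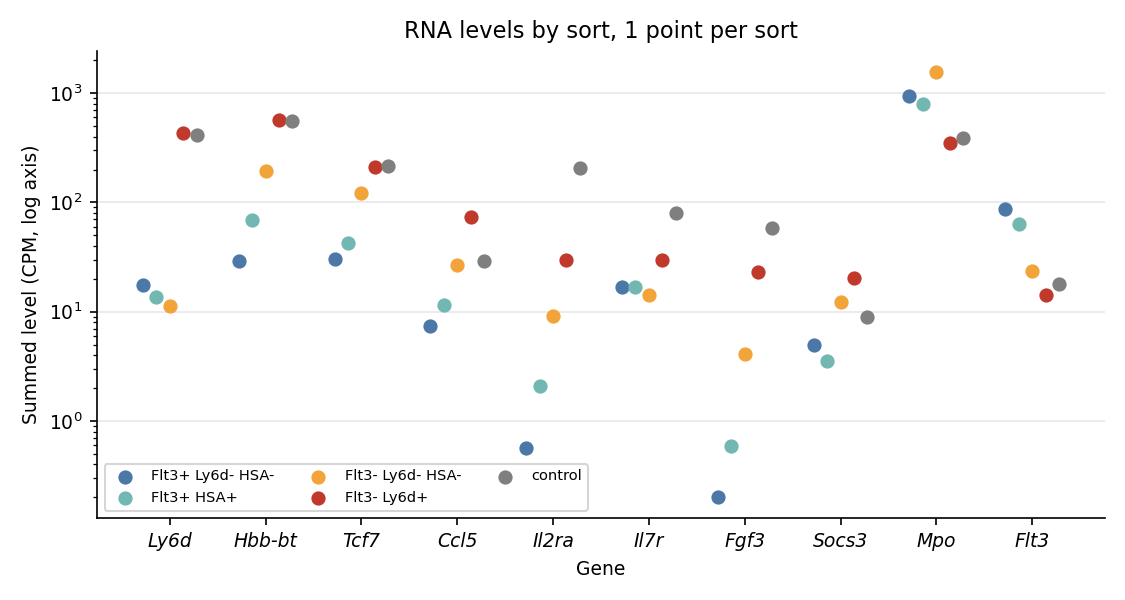
Summed levels (CPM, log axis) of 10 genes, 1 point per sort, coloured by sort. Ly6d, Hbb-bt, Tcf7, Ccl5, Il2ra, Il7r, Fgf3 and Socs3 stand highest of the gated sorts in the Ly6d+ sort, Mpo and Flt3 lowest, and Il2ra, Il7r and Fgf3 stand higher still in the control.

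Ly6d RNA was uneven among cells that had all been gated Ly6d+. A Ly6d UMI was found in 558 of the 847 cells (65.9%), with up to 77 UMIs in a cell. With every cell thinned to 3000 UMIs, which left out 21 cells of the sort that were too shallow, 384 of 826 cells (46.5%) held Ly6d RNA. The shares in the other gated sorts were 3.1% to 5.41% at the same depth, and whether those UMIs came from free RNA or from the cells was not tested. The control had 40% of cells with Ly6d RNA. At 5 or more UMIs among 3000 the Ly6d+ sort held 68 cells, against 1 cell of the Flt3+ Ly6d- HSA- sort and 0 of the other 2 gated sorts.

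**Figure D2:**
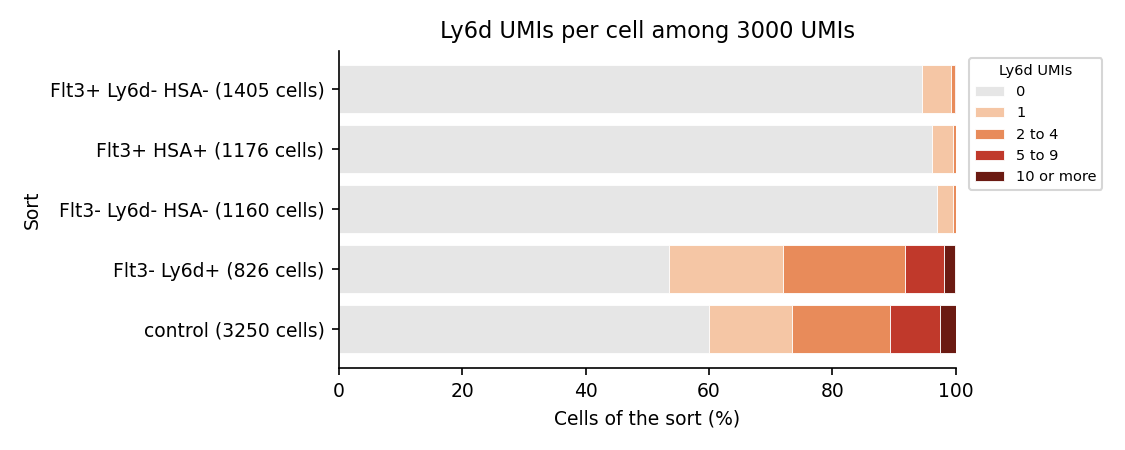
Shares of cells (%) with 0, 1, 2 to 4, 5 to 9 and 10 or more Ly6d UMIs among 3000, by sort. In the Ly6d+ sort 53.5% of cells hold none and 1.82% hold 10 or more, and the control has a like profile with 60% and 2.55%.

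Split by Ly6d RNA at equal depth, cells of the Ly6d+ sort had similar shares of most other RNAs examined. At full depth 558 of the 847 cells held Ly6d RNA, so the cells without it at equal depth include some that hold it. Such mixing can make the groups more alike, so like shares do not show that Ly6d RNA is unrelated to these RNAs. Il2ra was found in 9.38% (6.65 to 12.7) of the 384 cells with Ly6d RNA and 9.05% (6.54 to 12.1) of the 442 without it. Tcf7 was found in 46.1% and 43.7%, Hbb-bt in 18.2% and 19%, and the stem cell antigen Cd34 in 51% and 54.8%. Differences were seen for Il7r, in 10.9% (8 to 14.5) against 5.66% (3.69 to 8.24), and for the cell cycle inhibitor Cdkn1a, in 7.55% (5.12 to 10.7) against 3.62% (2.08 to 5.81). Cd24a was found in 49% (43.9 to 54.1) against 40.5% (35.9 to 45.2). The intervals of each of these 3 pairs overlap, and 32 genes were examined.

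Il2ra RNA marked a minority of the sort, 76 of 826 cells at equal depth and 191 of 847 (22.6%) at full depth. The other 750 cells at equal depth therefore include some that hold Il2ra RNA at full depth. Among the 76 cells Fgf3 was found in 10.5% (4.66 to 19.7), against 4% (2.71 to 5.66) of the other 750. Ccl5 was found in 23.7% (14.7 to 34.8) against 11.7% (9.52 to 14.3). The proliferation antigen Mki67 was found in 1.32% (0.0333 to 7.11) against 8.93% (6.99 to 11.2), and Mpo in 40.8% (29.6 to 52.7) against 57.6% (54 to 61.2). Tcf7 was found in 51.3% and 44.1%, Ly6d in 47.4% and 46.4% and Cd34 in 51.3% and 53.2%. Here too 32 genes were examined, and the intervals overlap for these 3 genes and for Fgf3 and Mki67.

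The comparison with Flt3- Ly6d- HSA- cells asked what RNA accompanied Ly6d and HSA on Flt3- progenitors. The profiles of these 2 sorts were the closest of those compared: the median absolute log2 difference over 9469 genes was 0.117, against 0.188 to the control, 0.209 to Flt3+ Ly6d- HSA- cells and 0.225 to Flt3+ HSA+ cells. By the size rule 13 of 5683 genes (0.229%) were higher and 33 (0.581%) lower in the Ly6d+ sort. Those higher included Ly6d, Fgf3, Il2ra, Hbb-bt, Ccl5, Il7r and Cd24a, the mitotic genes Nusap1 (2.66-fold), Ube2c (2.28-fold), Prc1 and Kif11, and the respiratory chain gene Cox6a2 (2.29-fold). Those lower were led by granulocyte genes: Ms4a3 (3 UMIs, 0.283 against 162 CPM), the granule protease Elane (1.41 against 675 CPM), Hp (0.0942 against 38.2 CPM), Igsf6, and Cebpa, a myeloid regulator (0.188 against 27 CPM).

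Cells with a granulocyte and monocyte profile were present in every sort but the Ly6d+ sort. A cell was put in this class when at least 7 of 14 markers had a UMI. The class held 0 of 847 Ly6d+ cells, which allows a share of up to 0.435% by the exact interval, and 97 of 1205 Flt3- Ly6d- HSA- cells (8.05%, 6.58 to 9.73) with 19.8% of their UMIs. The Flt3+ Ly6d- HSA- sort had 69 (4.89%), the Flt3+ HSA+ sort 27 (2.28%) and the control 46 (1.39%). Each of the 12 measured markers of that list was lower by 1.5-fold or more in the Ly6d+ sort than in Flt3- Ly6d- HSA- cells, beside 2.47% of all 9178 measured genes. Without the class 6 of them still reached 5 CPM in either sort, and 3 of these 6 were lower. The share of all genes was not counted in that setting. The class was chosen by these markers, so leaving it out lowers their levels in the other sorts by construction.

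Mpo, the myeloperoxidase gene, was nevertheless common in the Ly6d+ sort. A Mpo UMI was found in 741 of 847 cells (87.5%), with at most 25 UMIs in a cell, and the summed level was 349 CPM. The Ly6d+ sort held 3705 Mpo UMIs, 333 UMIs of the granule protease Ctsg, 96 of Prtn3 and 15 of Elane. Ctsg was at 31.4 CPM there, and outside the granulocyte class at 20.4, 31.9, 57.4 and 27.9 CPM in Flt3+ Ly6d- HSA-, Flt3+ HSA+, Flt3- Ly6d- HSA- and control cells. Elane therefore numbered 0.405 UMIs per 100 Mpo UMIs in Ly6d+ cells, against 53.1 to 127.5 per 100 in the granulocyte class of the other sorts. Elane and Mpo are among the markers that define the class, so this contrast is partly set by that choice. Outside that class the other sorts had 0.673 to 1.19 Elane UMIs per 100 Mpo UMIs, so the Ly6d+ sort was the lowest. These ratios rest on 15 to 91 Elane UMIs per sort. Without the class the Mpo level was 349 CPM in Ly6d+ cells and 373 CPM in the other Flt3- sort. It was then 299.8 CPM in the Flt3+ HSA+ sort and 203 CPM in the Flt3+ Ly6d- HSA- sort.

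Most genes called lowest in the Ly6d+ sort were no longer called without that class. By the size rule 12 of 5073 genes (0.237%) were lower there than in each of the other 3 gated sorts: Elane, Prtn3, Ctsg, Mpo, Anxa1, Anxa3, Lbp, Gsr, Alas1, Emb, Sdf2l1 and 1700003C15Rik. Elane, Prtn3, Ctsg and Mpo of these 12 are also markers that define the class. Without the class 4 genes were called and only 1700003C15Rik was shared with the 12. The other 3 were then Flt3, the lysosomal protease gene Ctss and the endothelial and stem cell receptor gene Adgrl4. Anxa1, which encodes a phospholipid-binding protein, kept a 1.99-fold (1.64 to 2.42) lower level than in Flt3- Ly6d- HSA- cells, just under the 2-fold limit. Emb, an immunoglobulin-family adhesion gene, went from 2.32-fold to 1.42-fold (1.3 to 1.55) lower.

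**Figure D3:**
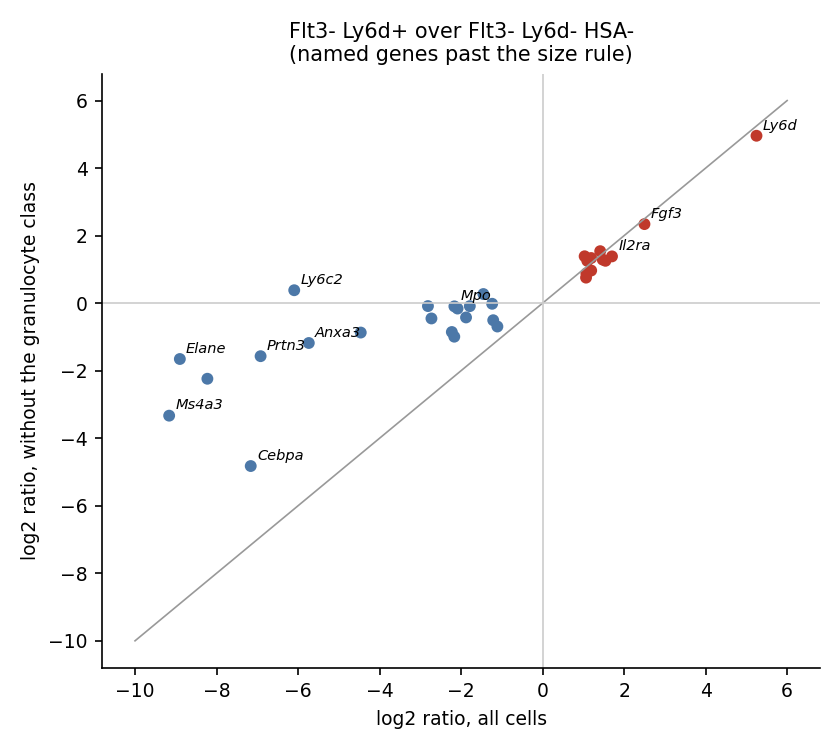
log2 ratios of Flt3- Ly6d+ over Flt3- Ly6d- HSA- cells for the named genes past the size rule, with all cells (x) and without the granulocyte class (y); the line marks equal values. Genes higher in Ly6d+ cells (red) stay near the line, while those lower (blue) lie above it, nearer to 0, and Ly6c2 (0.38) and Sdf2l1 (0.27) lie above 0.

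Leaving out the granulocyte class also changed which genes were higher in the Ly6d+ sort. The size rule then called 28 genes higher and 8 lower, and 10 of the 28 were among the original 13. The original calls that were lost were Il7r, Cd24a (1.84-fold, 1.71 to 1.97) and Cox6a2. The genes added included cell cycle genes: the kinase gene Aurkb (3.42-fold, 2.68 to 4.41), the nucleotide reductase gene Rrm2 (3.32-fold, 2.71 to 4.1), Pbk (2.93-fold), Spc24 (2.53-fold), Ccna2 (2.37-fold), Top2a (2.39-fold), Mki67 (2.34-fold) and Cdk1 (2.15-fold). Cdkn1a, the gene of the cell cycle inhibitor p21, was also called, 2.18-fold (1.74 to 2.74) higher. The 8 lower genes were Apoe (3.4-fold), Prtn3, 1700003C15Rik, the immediate early gene Egr1 (2.27-fold), Ctss, Cnrip1, Adgrl4 and Flt3 (2.02-fold). The clone gene 1700003C15Rik, and Apoe, Ctss, Cnrip1, Adgrl4, Pbk and Spc24, fall outside the rule for named genes and were chosen after their values were seen. Tcf7 stood 1.41-fold (1.32 to 1.5) higher in this setting, below the ratio of 1.5 used for lists.

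Most T-lineage and stem cell regulators were within 1.5-fold between the Flt3- sorts. Of 10 measured T-lineage regulators Tcf7 alone was 1.5-fold or more higher in Ly6d+ cells, with no member lower (median log2 ratio 0.15), beside 1.75% of all genes higher and a median of 0.02. Gata3, the zinc finger regulator that follows Tcf7, was at 36.7 against 27.4 CPM (1.34-fold, 1.16 to 1.55). Of 17 stem and progenitor regulators Lmo2 and Gata2 were lower. Lmo2, a bridging protein of stem cell transcription complexes, was at 62.9 against 136 CPM, and Gata2, a stem and mast cell regulator, at 1.6 against 16.1 CPM. Gata2 kept its difference without the granulocyte class, 9.55-fold (5.79 to 16.8) lower. Of 3 measured mast cell and basophil markers Cma1 (0 UMIs against 22.3 CPM) and Mcpt8 (6.5 against 23.9 CPM) were also lower, beside 2.47% of all genes, and Cpa3 (219 against 262 CPM) was not. Once that granulocyte class was left out Mcpt8 was 1.34-fold (0.975 to 1.85) lower and Cma1 still had 0 UMIs against 27.7 CPM. Their part in the Gata2 difference was not tested.

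Socs1, Socs3 and Cish, feedback genes of cytokine receptors, stood higher in the Ly6d+ sort than in every other gated sort. They encode inhibitors that JAK and STAT signalling induces. Socs3 was at 4.95, 3.55, 12.3, 20.2 and 8.93 CPM over the sorts. Cish was at 7.15, 5.11, 7.56, 14.5 and 9.3 CPM, and Socs1 at 11.4, 10.1, 10.8, 18.3 and 22.4 CPM. Of 6 measured genes of this list 3 were higher than in Flt3- Ly6d- HSA- cells and none lower, beside 1.75% and 2.47% of all genes. Without the granulocyte class 1 was, Cish at 1.55-fold (1.21 to 2.01), with Socs3 at 1.37-fold and Socs1 at 1.41-fold. Socs3 RNA was concentrated: 11 of the 847 cells held 42.5% of its UMIs.

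The comparison with Flt3+ HSA+ cells set the Ly6d+ sort against the most proliferative fraction. The size rule called 88 of 5809 genes (1.51%) higher and 178 (3.06%) lower than in Flt3+ HSA+ cells. Among the called genes the largest ratios upward were Fgf3 (39.3-fold, 23.3 to 71.2), Ly6d, Il2ra (14.5-fold, 10.8 to 19.7), Hbb-bt (8.23-fold), the mast cell and early T-progenitor protease gene Cpa3 (6.4-fold), Ccl5 (6.37-fold), Socs3 (5.67-fold), the retinol reductase gene Dhrs3 (5.29-fold), Tcf7, Qrfp (4.85-fold), the mucin gene Muc13 (3.94-fold) and Cd160 (3.56-fold). Downward, beside granulocyte genes and Anxa1 (5.21-fold, and 2.77-fold without the granulocyte class), the largest ratios included mitotic genes: Ube2c (5.99-fold), Nusap1 (4.99-fold), Ckap2l, Ccna2, Plk1, Sapcd2 and Fam64a.

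The comparison with Flt3+ Ly6d- HSA- cells spanned the widest gap in surface markers. It called 74 of 5770 genes (1.28%) higher and 94 (1.63%) lower. Fgf3 was 113-fold (47.9 to 352) higher, with 5 UMIs in the lower sort, and Cpa3 9.64-fold (8.79 to 10.6). Itga2b, an integrin of stem cells and megakaryocytes, was also higher, at 12.6 CPM in the Ly6d+ sort against 0.244 CPM. That level is below the 20 CPM that the size rule asks for. Cd160 (6.72-fold), Qrfp (6.74-fold), Scin (5.18-fold) and Dhrs3 (5.55-fold) were again among the largest. Lower were Ccr9, a chemokine receptor for thymus entry (13.2-fold, 9.1 to 19.8), Hopx (13.7-fold, 8.58 to 23.2), the interferon gamma receptor chain Ifngr2 (6.14-fold), Flt3, Prdx4 (4.46-fold) and Hmga2 (4.09-fold). Both comparisons use the Ly6d+ sort, so their shared genes are not separate evidence.

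T-lineage regulators stood higher in the Ly6d+ sort than in either Flt3+ sort. Against each of them 6 of 10 measured members were at least 1.5-fold higher (Tcf7, Gata3, Tox, Zfpm1, Runx1 and Runx3), beside 8.3% of all 9236 genes over Flt3+ HSA+ cells and 7.14% of 9231 over Flt3+ Ly6d- HSA- cells. The median log2 ratios of the list were 0.64 and 0.67, against 0.04 over all genes in each comparison. Gata3 was 1.62-fold (1.42 to 1.84) and 2.2-fold (1.91 to 2.53) higher, and Tox, a nuclear regulator of developing T cells, 1.59-fold and 2.1-fold. Runx1 and Runx3, runt-domain factors, were 1.53-fold to 1.63-fold higher, close to the limit used, and with the effective totals of edgeR the counts were 4 over Flt3+ HSA+ and 5 over Flt3+ Ly6d- HSA- cells. Without the granulocyte class each count was 5. Sox13, a gamma delta T-cell factor, was the member lower than in Flt3+ HSA+ cells, 1.6-fold.

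Some Notch targets were also higher than in the Flt3+ sorts. Of 7 measured genes of the list Hes1, Dtx1 and Dtx4 were higher in the Ly6d+ sort than in each Flt3+ sort, 4 were neither, and none was lower, beside 8.3% and 7.14% of all genes higher. Dtx1, a Notch-induced ubiquitin ligase gene, stood at 0.853, 0.507, 7.78, 9.51 and 6.73 CPM over the sorts. The interval of its ratio between the Flt3- sorts included 1 (1.22-fold, 0.924 to 1.62). Hes1, a repressor that Notch induces, was at 166.5 CPM in the Ly6d+ sort and 99.3 to 136 CPM in the other gated sorts. Notch1 itself was at 167 CPM against 114 to 137 CPM. The Hes1 and Notch1 ranges are of all cells, with the granulocyte class included.

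Stem and progenitor genes divided. Over Flt3+ HSA+ cells 5 of 16 measured members were lower (Meis1, Hoxa9, Cd34, Hmga2 and Egfl7), beside 7.31% of all genes, and 2 were higher (Gfi1b and Nfe2). Over Flt3+ Ly6d- HSA- cells Lmo2 was lower too, 6 in all, beside 6.13% of all genes. Hoxa9, a homeobox gene of stem cells, was at 96.6, 87.7, 48.7 and 39.7 CPM over the gated sorts, lowest in the Ly6d+ sort. Hmga2, a chromatin protein gene of self-renewing cells, was at 47.4 and 51.2 CPM in the Flt3+ sorts and at 14.3 and 11.6 CPM in the Flt3- sorts. Other members were within 1.5-fold: Spi1, the gene of the myeloid and progenitor factor PU.1, was at 202 CPM in the Ly6d+ sort against 166 to 240, Bcl11a at 178 against 161 to 185, and Mef2c at 325 against 320 to 352. Gfi1b, a repressor of stem and erythroid cells, was highest in the Ly6d+ sort, at 30.5 CPM against 10.4 to 20.9.

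Innate lymphoid markers were higher than in the Flt3+ sorts but not than in the other Flt3- sort, without the factors that define NK cells. Of 7 measured members 6 were higher over Flt3+ HSA+ cells, beside 8.3% of all genes, and 5 over Flt3+ Ly6d- HSA- cells, beside 7.14%. Over Flt3- Ly6d- HSA- cells 0 of 7 were higher and Gzmb was lower, beside 1.75% and 2.47% of all genes. The median log2 ratio there was -0.25. Tyrobp, a signalling adaptor of NK and myeloid cells, was at 310, 269, 641, 740 and 322 CPM, and the receptor gene Cd160 at 8.24, 15.5, 38.3, 55.4 and 31.8 CPM over the sorts. Ncr1, Eomes and Tbx21 had 0 UMIs in the Ly6d+ sort and also in both Flt3+ sorts. Cd7, a surface molecule of early T and NK cells, was at 146 CPM in the Ly6d+ sort against 51.9 to 128 CPM in the other gated sorts. Without the granulocyte class Cd7 was at 159.7 CPM in the other Flt3- sort, and the Ly6d+ sort was then 1.1-fold (1.02 to 1.17) lower.

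**Figure D4:**
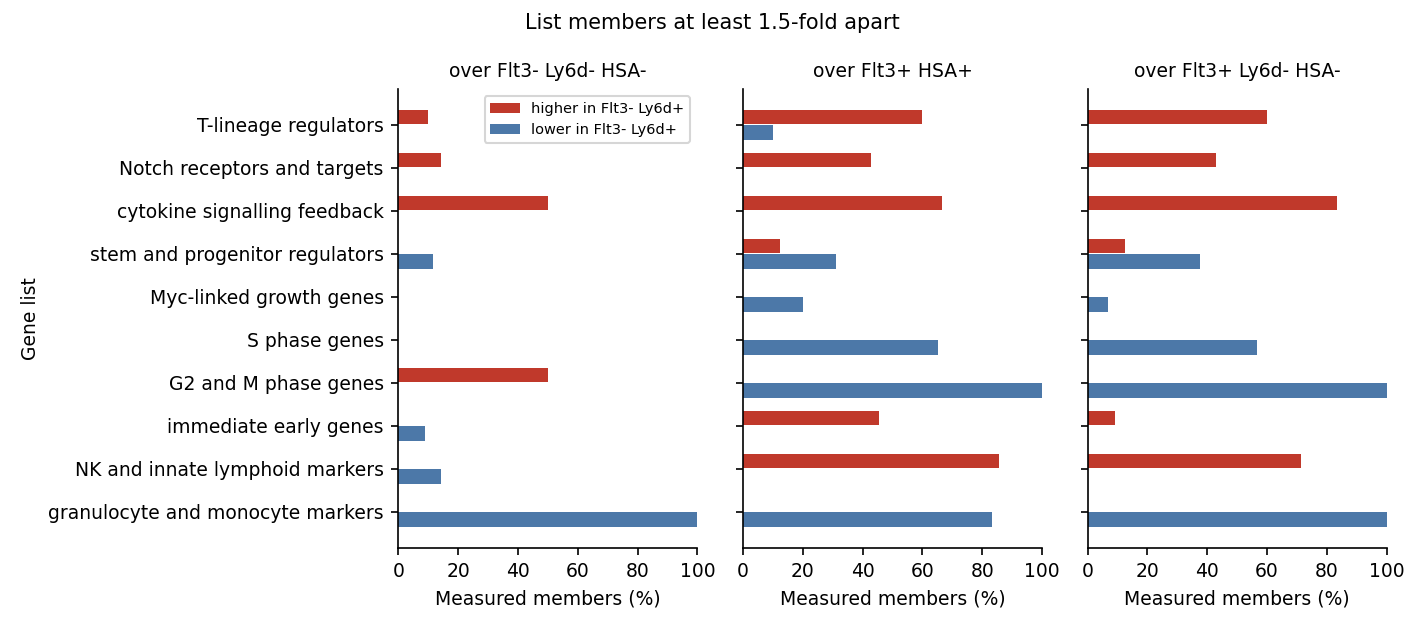
Shares of the measured members of 10 gene lists that were at least 1.5-fold higher (red) or lower (blue) in the Ly6d+ sort, in 3 comparisons. Of T-lineage regulators 6 of 10, and of Notch genes 3 of 7, are higher than in each Flt3+ sort, all G2 and M phase genes are lower than there, and 11 of 22 of these are higher than in the other Flt3- sort.

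Few Ly6d+ cells carried the RNA of dividing cells. Among 3000 UMIs, 75 of 826 cells held 5 or more from 22 genes of the G2 and M phases (9.08%, 7.21 to 11.2). Flt3- Ly6d- HSA- cells had a share of 6.55% (5.2 to 8.13), Flt3+ Ly6d- HSA- cells 26%, Flt3+ HSA+ cells 52.1% and the control 27.9%. Without the granulocyte class the share in Flt3- Ly6d- HSA- cells was 4.52% (3.35 to 5.94). All 22 G2 and M phase genes were lower in the Ly6d+ sort than in each Flt3+ sort, with median log2 ratios of -2.11 and -1.21, beside 7.31% and 6.13% of all genes lower and a median of 0.04 in each comparison. Over Flt3- Ly6d- HSA- cells 11 of 22 were at least 1.5-fold higher and none lower (median 0.60), beside 1.75% of all genes higher and a median of 0.02. With that class left out 19 of 22 were higher, a setting in which the share of all genes was not counted. Of 23 S phase genes 15 were lower than in Flt3+ HSA+ cells, beside 7.31% of all genes, and 13 lower than in Flt3+ Ly6d- HSA- cells, beside 6.13%. None differed by 1.5-fold from Flt3- Ly6d- HSA- cells, while 9 of 23 were higher without the granulocyte class, again with no share of all genes counted. At least 5 S phase UMIs were found in 39.2% (35.9 to 42.6) of Ly6d+ cells against 33.1% (30.4 to 35.9) of Flt3- Ly6d- HSA- cells.

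**Figure D5:**
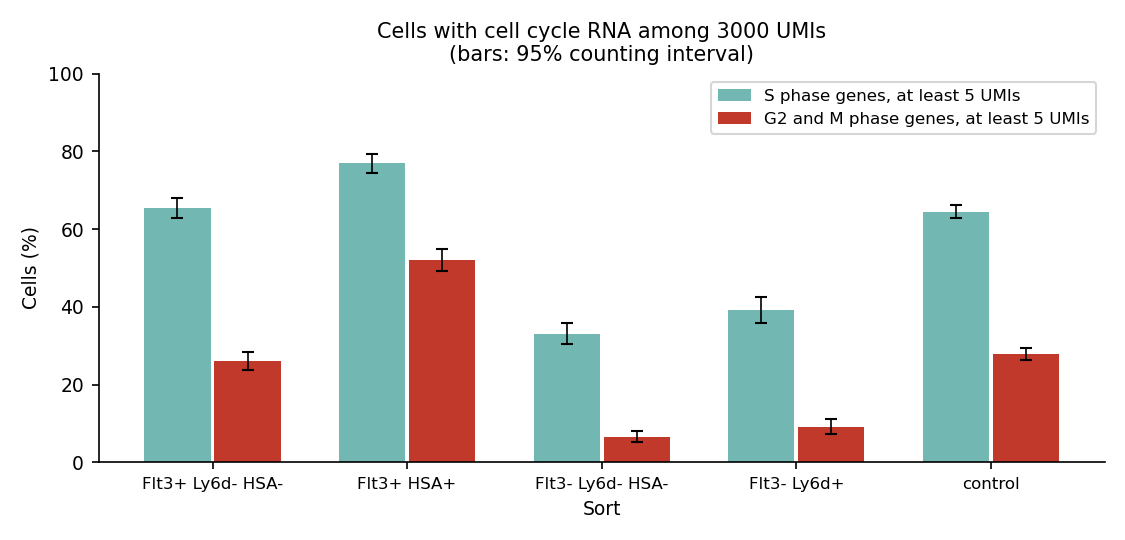
Shares of cells (%) with at least 5 UMIs of the S phase list and of the G2 and M phase list among 3000, by sort, with 95% counting intervals. The Ly6d+ sort (39.2% and 9.08%) lies just above Flt3- Ly6d- HSA- cells (33.1% and 6.55%) and well below the other 3 sorts.

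Genes that restrain the cell cycle differed in direction. Cdkn1a was at 5.2, 6.56, 13.4, 23.1 and 29.3 CPM over the sorts. Its level was 4.44-fold (3.57 to 5.54) higher in the Ly6d+ sort than in Flt3+ Ly6d- HSA- cells. Cdkn2c, the gene of another inhibitor, p18, was lower, at 3.96 CPM against 9.83 and 13.4 CPM in the Flt3+ sorts. Ccnd1, a D-type cyclin gene, was at 15.9 CPM against 21.9 to 39.5 in the other gated sorts.

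The 75 cells of the Ly6d+ sort with G2 and M phase RNA differed from the other 751 in RNAs that are not of the cell cycle. Tyrobp was found in 49.3% (37.6 to 61.1) of them against 85.5% (82.8 to 87.9) of the others, and Cd7 in 14.7% against 34.6%. The chemokine genes Ccl3 and Ccl4 were found in 1.33% and 9.33% against 13.3% and 21.8%, and the progenitor factor Bcl11a in 22.7% (13.8 to 33.8) against 40.7% (37.2 to 44.4). Il2ra was found in 1 of the 75 cells (1.33%, 0.0338 to 7.21), against 9.99% (7.94 to 12.4). Ly6d (41.3% and 47%), Cd34 (53.3% and 53%) and Mpo (58.7% and 55.8%) were found in like shares of both. All cells were set to 3000 UMIs, of which cell cycle RNA takes a larger part in dividing cells, and its part in these shares was not tested.

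The control sort asked where Ly6d+ cells stood against Kit+ cells that were not gated on CD25 or Bcl11b. By the size rule 146 of 5824 genes (2.51%) were higher in the control and 26 (0.446%) lower. Genes of the T-cell receptor complex led those higher in the control: Cd3d (0.188 CPM in the Ly6d+ sort, 60.4 in the control), Cd3g (0.942 and 193), Cd3e (0.283 and 29) and the adaptor gene Skap1 (5.65 and 79.5). Of 12 measured receptor components and signalling genes 9 were higher in the control, beside 6.3% of all 9221 genes. Cd3g RNA was found in 10 of the 847 Ly6d+ cells, with 1 UMI in each. At equal depth its share was 0.121% in the Ly6d+ sort, 0.0712% to 0.172% in the other gated sorts and 12.8% in the control, so it lay within the range of the sorts that carry almost none. Rag1, a recombinase gene, was 17.8-fold (8.11 to 48.6) higher in the control, Thy1 10.6-fold (8.3 to 13.8) and Lef1, a partner of TCF-1, at 6.24 against 0.188 CPM.

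Genes lower in the control included stem and progenitor regulators, chemokines and innate receptors. Of 16 measured stem and progenitor regulators 6 were lower (Lmo2, Hhex, Bcl11a, Spi1, Mef2c and Gfi1b) and none higher, beside 4.6% of all genes. Klrd1, an NK receptor gene, was 3.44-fold (2.89 to 4.1) lower, Ccl3 3.24-fold, Cd7 3.04-fold, Ccl4 2.73-fold, Neurl3 2.72-fold, Ier3, an early response gene, 2.63-fold, Ccl5 2.57-fold, Qrfp 2.4-fold and Tyrobp 2.3-fold. Of 11 immediate early genes 5 were lower in the control (Junb, Ier2, Zfp36, Nr4a1 and Btg2). The control held 27.9% of cells with 5 or more G2 and M phase UMIs against 9.08%, and without cells with any such UMI 47 genes were higher and 5 lower in the control.

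Few genes passed the limit set here for spread among Ly6d+ cells, and smaller spread beyond the counting of UMIs was not counted. At 3000 UMIs per cell, 55 of 8476 genes with a mean of at least 0.02 UMIs (0.649%) had a variance of at least 2 times the mean, which is 1 for pure counting. The other sorts had 46 to 93 such genes. The named genes of largest spread were Cd74 (36.7), Hbb-bt (24.6), H2-Eb1 (16.3), Prss2 (14.5), Gzma (11.7), Malat1 (8.88), Ly6d (4.56), H2-Ab1 (4.48), Ccl3 (3.88), Ccl4 (3.83), Hmgb2 (3.74), Top2a (3.68), Ube2c (3.67), Ier3 (3.47) and Ccl5 (3.42). Predicted and mitochondrial genes of like spread were counted and are not named. The genes named include MHC class II genes, cell cycle genes and chemokines.

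A few cells held most of the RNA of some of these genes. Cd74, the invariant chain of MHC class II, was found in 25 cells, and 4 of them held 85.8% of its UMIs, up to 117 in a cell. H2-Aa, an MHC class II gene, had 76.8% of its UMIs in 2 cells. Prss2, a trypsinogen gene, had 90.4% of its UMIs in 4 cells and Gzma, a granzyme gene, 85.7% in 1 cell. Their hashtag shares were 98% or more in each of these cells. For Bcl11b 1 cell held 32.4% of the UMIs and 10 cells held 81.1%. Of 6 measured dendritic markers 3 (Cd74, H2-Aa and Itgax) were higher in the Ly6d+ sort than in Flt3- Ly6d- HSA- cells and Irf8, a regulator of dendritic and myeloid cells, was lower, beside 1.75% and 2.47% of all genes. With the granulocyte class left out H2-Aa and Itgax were higher and none lower, with Cd74 at 1.22-fold (0.981 to 1.52) and Irf8 at 34.3 against 24 CPM. The plasmacytoid marker Siglech was at 0.659 CPM. Itgax, the integrin CD11c, differed from Cd74 in being spread thinly, with 1 or 2 UMIs in each of 82 cells.

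Hbb-bt RNA came without alpha globin RNA in the Ly6d+ sort, as in every other sort. It was found in 268 of 847 cells (31.6%), and 110 cells with 5 or more UMIs held 95.6% of its UMIs, up to 242 in a cell. The alpha globin genes Hba-a1 and Hba-a2 had 0 UMIs in the Ly6d+ sort and in each other sort, so their absence does not set it apart. The other adult beta globin gene, Hbb-bs, had 1 UMI in the Ly6d+ sort. Cells with and without Hbb-bt RNA had similar shares of other RNAs: Ly6d was found in 45.5% of the 154 cells with Hbb-bt RNA at equal depth and 46.7% of the other 672, Tcf7 in 47.4% and 44.2%, Kit in 34.4% and 27.5%, and Il2ra in 13% (8.12 to 19.3) and 8.33% (6.36 to 10.7). The 672 cells include some that hold Hbb-bt RNA at full depth, which can make these groups more alike. Hbb-bt and Hbb-bs are near-identical neighbours, so the split of reads between them is uncertain.

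Markers of other cells were low. Of 10 B-cell markers in the matrix 1, Cd79b, reached 5 CPM in the Ly6d+ sort, at 48.5 CPM against 37.5 to 53.5 CPM in the other gated sorts. Pax5, the B-lineage commitment factor, was found in 1 of 847 cells and Ebf1 in 4, and Ms4a1 and Vpreb3 had 0 UMIs. The summed B-cell list was at 56.2 CPM in the Ly6d+ sort and 41.4 to 59.2 CPM in the other gated sorts. Of 5 thymic epithelial markers 4 had 0 UMIs (Krt5, Krt8, Foxn1 and Psmb11). Of 8 mast cell and basophil markers 5 had 0 UMIs, while Cpa3 was at 219 CPM. Of the later thymocyte list Cd4 was at 0.848 CPM and Cd8a and Cd8b1 had 1 UMI each, while Cd5 and Cd6, surface receptors of T cells, were at 13.2 and 15.1 CPM. Cd5 was at 5.69 to 7.78 CPM in the other gated sorts, and Cd6 at 12.5 to 14.6 CPM. Of 6 measured T-cell receptor components and signalling genes Cd247, Cd5 and Cd7 were higher than in each Flt3+ sort. Thy1 was lower than in each. Over Flt3+ HSA+ and Flt3+ Ly6d- HSA- cells 8.3% and 7.14% of all genes were higher, and 7.31% and 6.13% lower. At equal depth Thy1 was found in 1.09% of Ly6d+ cells, against 3.74% and 4.56% in these sorts.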

How the data were processed

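The data were 1 droplet library of 3′ RNA from 5 hashtagged sorts, with its hashtag library. The authors deposited whole-number UMI counts per gene and cell, made with Cell Ranger 3.0 on mm10 per the submitters' processing notes, hashtag counts per cell, and a table that assigns each cell to a sort. The sources used here do not say whether hashtag counts are reads or UMIs, nor how cells were assigned. All 8293 barcodes appeared in both libraries, which are the same cells. The 345 cells with no sort were left out, 313 of them with tags of 2 sorts and 97 of these with the Ly6d+ tag, and no other doublet calling was run.

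Counts were summed per sort and scaled to CPM (numpy 2.4.6, scipy 1.17.1, pandas 2.3.3, matplotlib 3.10.9). Intervals were exact binomial at 95% and cover counting error only. Cells were thinned to 3000 UMIs for shares and variances, leaving out 6 to 52 shallow cells per sort. With 1 sort of each kind no p-value was computed. Alternatives included scaling with edgeR 4.0.16 and DESeq2 1.42.0 factors in R 4.3.3, other cell filters, and other thresholds. Named genes were gate and marker genes, members of 28 lists, the 12 largest called ratios in each direction against each gated sort (8 for the control), up to 15 highest or lowest of the gated sorts and the 15 of largest spread, without predicted genes. The members and lists were chosen with earlier results of these data known. The calls were tested on simulated data. No sequence is printed, since the expression values bear on none.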

Additional observations from a re-analysis of the deposited data

How the results depend on the processing

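Of 138 alternative counts and shares 97 were held to be unchanged. Counts had to stay within 1.5 times the reported value, and the share of cells with G2 and M phase RNA within its counting interval. The cause of the shifts was not tested, except that looser or stricter thresholds change the number of genes that can pass. Counts run in the order higher and lower than Flt3- Ly6d- HSA- cells (13 and 33 as reported), higher and lower than Flt3+ HSA+ cells, higher and lower than Flt3+ Ly6d- HSA- cells, higher and lower in the control, and highest and lowest of the gated sorts. At 5 CPM with any share of cells they were 33, 95, 206, 327, 186, 224, 282, 62, 18 and 40. At 50 CPM and 10% of cells they were 5, 16, 36, 95, 33, 43, 69, 11, 3 and 7. With equal weight per cell 17 genes were lower than in Flt3- Ly6d- HSA- cells and 6 lowest of all, with thinned cells 14 and 5. With the deepest 5% of cells left out 6 were higher and 10 lower than in Flt3- Ly6d- HSA- cells, and 2 lowest. Without the granulocyte class these were 28, 8 and 4. Without cells with a G2 or M phase UMI they were 8, 12 and 4, with 50 lower than in Flt3+ HSA+ cells, 52 lower than in Flt3+ Ly6d- HSA- cells, and 47 higher and 5 lower in the control. The spread count was 32 at 2000 UMIs and 101 at 5000. The share of cells with G2 and M phase RNA was 12.7% at 3 UMIs and 6.3% at 8.

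Of 1240 alternative log2 ratios of named genes 20 changed sign, counted only where the reported levels were at least 1.5-fold apart. With the deepest 5% of cells left out the ratios over Flt3+ HSA+ cells were 0.06 for Alas1, 0.19 for Mpo and 0.22 for Prtn3, and that over Flt3+ Ly6d- HSA- cells was 0.07 for Mpo. Without the granulocyte class Ly6c2 was 0.38 and Sdf2l1 0.27 over Flt3- Ly6d- HSA- cells. Over Flt3+ HSA+ cells Alas1 was then 0.03, Mpo 0.22 and Prtn3 0.62, and over Flt3+ Ly6d- HSA- cells Alas1 was 0.00, Ctsg 0.62, Mpo 0.78 and Prtn3 0.26. The control over the Ly6d+ sort was then -0.84 for Prtn3. Without cells with a G2 or M phase UMI, Kif11 was -0.33, Nusap1 -0.40 and Ube2c -0.59 over Flt3- Ly6d- HSA- cells, and Ctsg 0.12, Mpo 0.18 and Prtn3 0.65 over Flt3+ HSA+ cells.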
